A study of Capra hircus with 10 samples.

Results

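The miR-26 family of the lactating goat mammary gland was followed as the rows of the deposited counts named miR-26a or miR-26b, with either arm of the precursor. The rule found 3 of the 1804 deposited miRNA, namely miR-26a-5p, miR-26a-3p and miR-26b-5p. A row named miR-26b-3p was not among those the rule found, so that arm was not analysed here. The samples were mammary tissue of 10 goats of the Alpine breed, taken at the height of lactation (48 ± 2 days after kidding). All goats were fed the same hay-based diet before the experiment. For 48 h before slaughter, 4 Control goats (libraries L01, L04, L06 and L10) ate it ad libitum and food was withheld from 6 FD goats (the other libraries from L02 to L09). Each library came from 1 goat, so libraries are biological replicates, and the tissue was whole gland in which several cell types are mixed.

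MicroRNA guide the silencing complex to messenger RNA mainly through their seed, bases 2 to 8 from the 5′ end. Members of the miR-26 family are transcribed from introns of genes for small C-terminal domain phosphatases (the CTDSP genes) and share their seed. In cell culture they repress EZH2, a histone methyltransferase, and the transcription factor MYC represses them. In goat mammary epithelial cells they have been tied to triacylglycerol synthesis through INSIG1, an inhibitor of the processing of the lipogenic factor SREBP. In the gene table of goat assembly ARS1.2, 1 gene named MIR26A lay within the span of CTDSPL on chromosome 22 and 1 gene named MIR26B within that of CTDSP1 on chromosome 2. Other mammals carry another copy of mir-26a in CTDSP2. The table listed 0 genes inside the span of CTDSP2. Reads of miR-26a-5p from such a copy could not be told apart.

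The 3 sequences, as deposited with the counts, are shown because the identity of the seed and the few bases that separate the paralogues decide how the counts can be read. Capitals mark the seed:
miR-26a-5p: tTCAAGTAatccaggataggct
miR-26b-5p: tTCAAGTAattcaggataggtt
miR-26a-3p: cCTATTCTcggttacttgcacg

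Both 5p miRNA were 22 nt long with the seed TCAAGTA. They differed at 2 positions counted from 1 at the 5′ end, C11T and C21T from miR-26a-5p to miR-26b-5p, and were identical at the other 20. In the next pair of sequences the capitals mark the differing bases:
miR-26a-5p: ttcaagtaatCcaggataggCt
miR-26b-5p: ttcaagtaatTcaggataggTt

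Reads that end before base 21 are therefore assigned to 1 or the other miRNA by base 11 alone. After miR-26b-5p, the deposited miRNA nearest to miR-26a-5p was 8 edits away. No miRNA outside the family had the seed TCAAGTA: it stood at bases 2 to 8 of 2 of the 1804 deposited miRNA and of 0 predicted miRNA on the 1070 predicted precursors. The seed of miR-26a-3p, CTATTCT, was found at these bases in that miRNA alone (1 of 1804).

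Counts summed to between 4495512 and 9842009 reads per library. The lowest total was in Control library L06 and the highest in FD library L08. To obtain normalized read counts, each library was divided by its DESeq2 size factor, from 0.714 to 1.67. FD library L08 also had the lowest normalized count of miR-148a-3p, the most abundant miRNA (626225, against 914351 to 1527713 in the other libraries). The edgeR tests of the paralogues and the tests of their sum and ratio are therefore given with and without it. The shares of counts were compared over all libraries only.

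miR-26a-5p was 1 of the most abundant miRNA of the gland. It ranked 5 in 9 of the libraries and 6 in L06, and its share of a library's counts lay between 3.82% and 6.68%. miR-26b-5p ranked between 18 and 26 with a share of 0.562% to 0.846%. The 95% binomial (Wilson) interval of these shares was at most 0.0185 percentage points to either side for miR-26a-5p and 0.00770 for miR-26b-5p. These intervals cover counting error only. miR-26a-3p was near the limit of detection, with 103 counts over all the libraries and ranks from 468 to 819. By mean normalized count 4 miRNA stood above miR-26a-5p. These were miR-148a-3p with 1201928, miR-10b-5p with 815336, miR-143-3p with 763364 and miR-30a-5p with 592383. The next below was miR-22-3p (246860). With a mean of 317431 and a range of 240543 to 393392, miR-26a-5p overlapped miR-22-3p, whose range was 183731 to 290562. It did not overlap miR-30a-5p, which ran from 429506 to 739368.

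**Figure D1:**
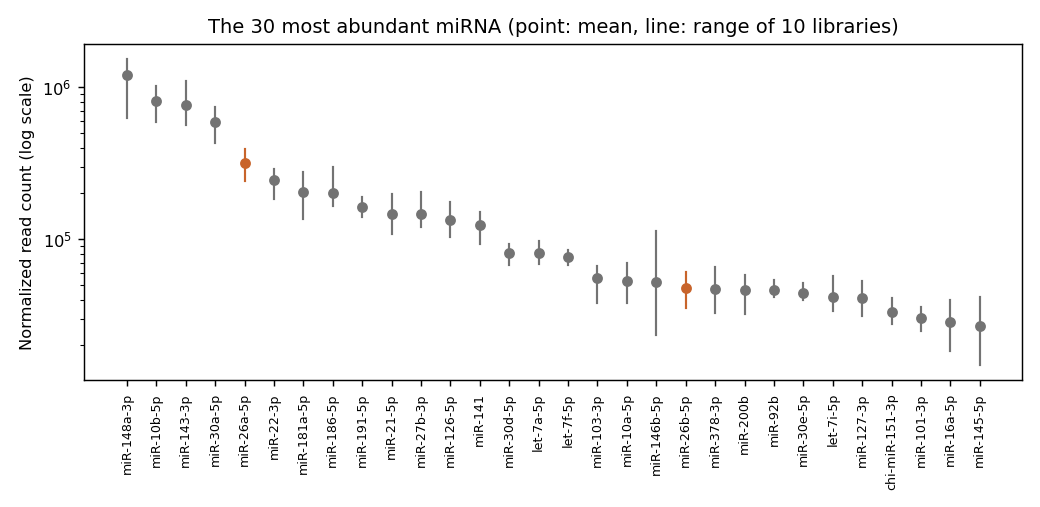
Mean normalized read count (points, log axis) and range over the 10 libraries (lines) of the 30 most abundant miRNA, with the miR-26 miRNA in orange. miR-26a-5p stands at place 5 with a mean of 317431 and miR-26b-5p at place 20 with 47810.

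miR-26a-5p, the abundant paralogue, had a higher mean in FD goats, but its counts overlapped between the diets and the difference did not pass the test. Its normalized read counts in Control goats were 271886 in L01, 287221 in L04, 240543 in L06 and 341418 in L10. In FD goats they were 274425 in L02, 362594 in L03, 341137 in L05, 359139 in L07, 393392 in L08 and 302560 in L09. Of the 6 FD libraries, 3 (L03, L07 and L08) lay above every Control library, 5 lay above the Control median and 0 lay below every Control library. The highest Control library, L10, was level with L05.

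The mean of miR-26a-5p was 285267 ± 42175 in Control (SD, n = 4) and 338874 ± 43412 in FD goats (SD, n = 6). Across all miRNA whose highest normalized count was above 28, a quasi-likelihood test of edgeR with TMM scaling and Benjamini-Hochberg adjustment gave a log2 fold change (FD over Control) of 0.23. Its standard error was 0.129, its 95% interval ran from -0.045 to 0.51 and its adjusted p was 0.4. The fold change was thus 1.18, with an unadjusted p of 0.0923 in the edgeR test, at place 111 of the 490 miRNA tested. L08 carried a large part of this value, since without it the log2 fold change was 0.12 (edgeR adjusted p = 0.713). As a share of all counts, miR-26a-5p took 4.32% ± 0.383 in Control (SD, n = 4) and 5.25% ± 0.861 in FD goats (SD, n = 6). That difference of 0.931 percentage points was given an exact p of 0.081 by a two-sided permutation test over the 210 possible assignments of libraries to diets.

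miR-26b-5p, the less abundant paralogue, had nearly the same mean in both diets. Its normalized read counts in Control goats were 45224 in L01, 44215 in L04, 35404 in L06 and 61001 in L10. In FD goats they were 48501 in L02, 46949 in L03, 48307 in L05, 54378 in L07, 46539 in L08 and 47584 in L09. All 6 FD libraries lay above the Control median and inside the Control range, which L06 bounded from below and L10 from above. The mean was 46461 ± 10650 in Control (SD, n = 4) and 48710 ± 2878 in FD goats (SD, n = 6). The log2 fold change was 0.055 (standard error 0.130, 95% interval -0.23 to 0.34, adjusted p = 0.845 in the same edgeR test), and without L08 it was 0.0075 (edgeR adjusted p = 0.985). Its sign rested on L06, without which the value was -0.038 (edgeR adjusted p = 0.924), and on the scaling, since the upper quartile gave -0.024 (edgeR adjusted p = 0.945). As a share of counts, miR-26b-5p took 0.702% ± 0.117 in Control (SD, n = 4) and 0.752% ± 0.0416 in FD goats (SD, n = 6) (two-sided exact permutation test, p = 0.357).

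miR-26a-3p, the passenger strand of mir-26a, was too scarce for the filter, since its highest normalized count was 17.3. The Control libraries held 5 counts in L01, 2 in L04, 9 in L06 and 13 in L10. The FD libraries held 8 in L02, 11 in L03, 6 in L05, 11 in L07, 29 in L08 and 9 in L09. After normalization the mean was 8.49 ± 5.1 in Control (SD, n = 4) and 9.96 ± 3.8 in FD goats (SD, n = 6). In the edgeR fit without a filter its log2 fold change was 0.30 (standard error 0.45, 95% interval -0.61 to 1.21, adjusted p = 0.809). No difference between the diets was detected at 2 to 29 counts per library.

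Of the 2 members that passed the count filter, 0 had an adjusted p under 0.1, against 0% (0 of 490) of all miRNA tested. An unadjusted p under 0.05 was given to 0 of these 2 and to 15.7% (77 of 490) of all miRNA tested. Groups that did not overlap were found for 0 of the 2 and for 2.24% (11 of 490). DESeq2's Wald test called 5.31% (26 of 490) at an adjusted p under 0.1, and neither member was among them (adjusted p = 0.371 for miR-26a-5p and 0.83 for miR-26b-5p).

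**Figure D2:**
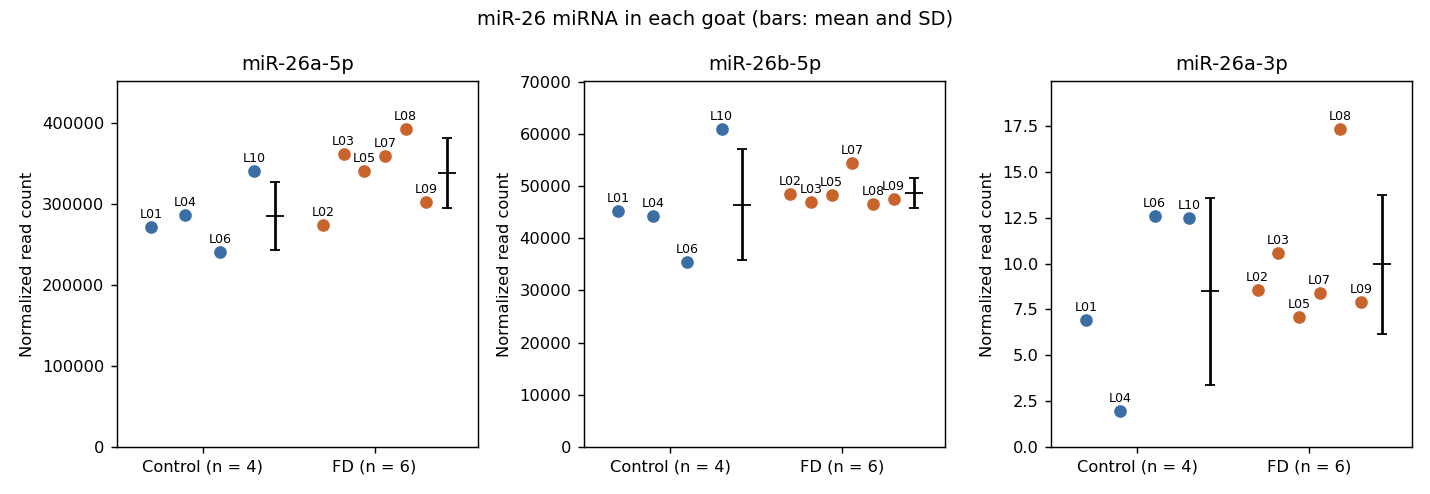
Normalized read counts of the 3 miR-26 miRNA in each library (points, named), by diet, with the mean and SD beside each group on axes that start at 0. For miR-26a-5p, L03, L07 and L08 lie above every Control library, while for miR-26b-5p all 6 FD libraries lie within the Control range of 35404 to 61001.

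**Figure D3:**
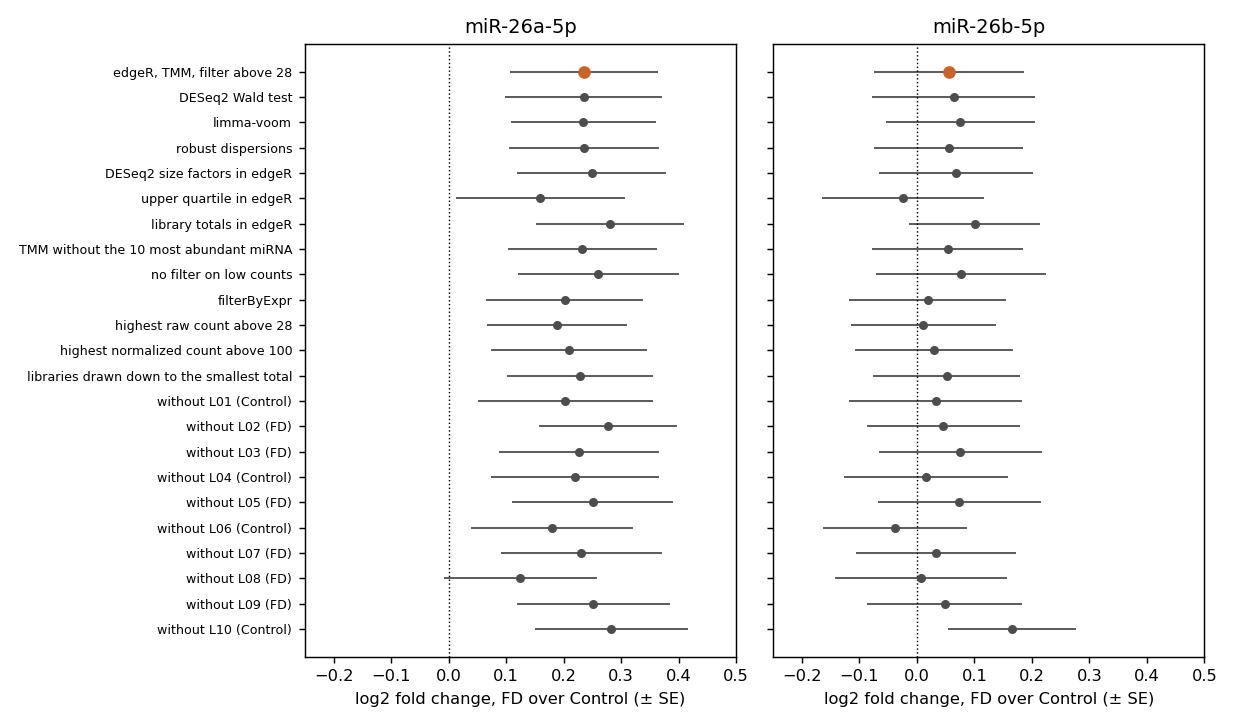
Log2 fold change (FD over Control) of miR-26a-5p and miR-26b-5p with its standard error (lines) in the main edgeR fit (orange) and under each other choice of test, scaling, filter or libraries (grey). The values of miR-26a-5p stay between 0.12 and 0.28, while those of miR-26b-5p fall on both sides of 0, from -0.038 to 0.17.

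Because the paralogues share a seed, their sum and their ratio were examined as well. The summed normalized count of miRNA with the miR-26 seed was 331728 ± 52671 in Control (SD, n = 4) and 387584 ± 43545 in FD goats (SD, n = 6). The difference of mean log2 sums was 0.23 (standard error 0.131, two-sided exact permutation test, p = 0.0857, or 0.257 after adjustment over the 3 tests on sums and ratios). Without Control library L10 it was 0.33 (exact permutation p = 0.0357, unadjusted), and without Control library L06 it was 0.15 (exact permutation p = 0.25). Without FD library L08 it was 0.19 (exact permutation p = 0.175). miR-26a-5p made up between 84.8% and 89.4% of this sum in every library, so the sum followed miR-26a-5p.

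The ratio of miR-26a-5p to miR-26b-5p counts needs no scaling between libraries. In Control goats it was 6.01 in L01, 6.5 in L04, 6.79 in L06 and 5.6 in L10. In FD goats it was 5.66 in L02, 7.72 in L03, 7.06 in L05, 6.6 in L07, 8.45 in L08 and 6.36 in L09. L03, L05 and L08 lay above every Control library, the other FD libraries within the Control range. On the log2 scale the mean ratio was 2.63 ± 0.123 in Control (SD, n = 4) and 2.79 ± 0.206 in FD goats (SD, n = 6). The difference of 0.16 (standard error 0.104) had p = 0.219 in the two-sided exact permutation test and 0.329 after adjustment over the 3 tests. Without L08 it was 0.098 (exact permutation p = 0.365), and without L10 it was 0.11 (exact permutation p = 0.452). The diet differences of the paralogues were therefore not shown to differ from each other.

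The arms of mir-26a were very unequal. Over all libraries there were 3416755 counts of miR-26a-5p and 103 of miR-26a-3p, which is 33172 counts of the 5p for each count of the 3p. Any reads of a mir-26a copy elsewhere would enter the 5p count, so this ratio may hold 5p reads of more than 1 precursor. Of the 195 named precursors with 1 miRNA on each arm, both with at least 1 count, the median ratio of the major to the minor arm was 36.0. mir-26a stood at place 3, after mir-182 and mir-451, whose minor arms had 1 count each.

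Per 1000000 counts of miR-26a-5p, the pooled level of miR-26a-3p was 28.5 in Control and 30.8 in FD goats. The single libraries ran from 6.83 (L04, 95% Poisson interval 0.827 to 24.7) to 52.4 (L06, 24.0 to 99.5), and both of these extremes were Control libraries. The interval held the value pooled over all libraries, 30.1, in 9 of 10 libraries, L04 being the exception. On the log2 scale, with 0.5 added to each count, the ratio of 5p to 3p was 15.2 ± 1.16 in Control (SD, n = 4) and 15.0 ± 0.357 in FD goats (SD, n = 6). The difference was -0.16 (standard error 0.6, two-sided exact permutation test, p = 0.814, or 0.814 after adjustment). Its direction rested on L04, without which it was 0.39 (exact permutation p = 0.202).

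**Figure D4:**
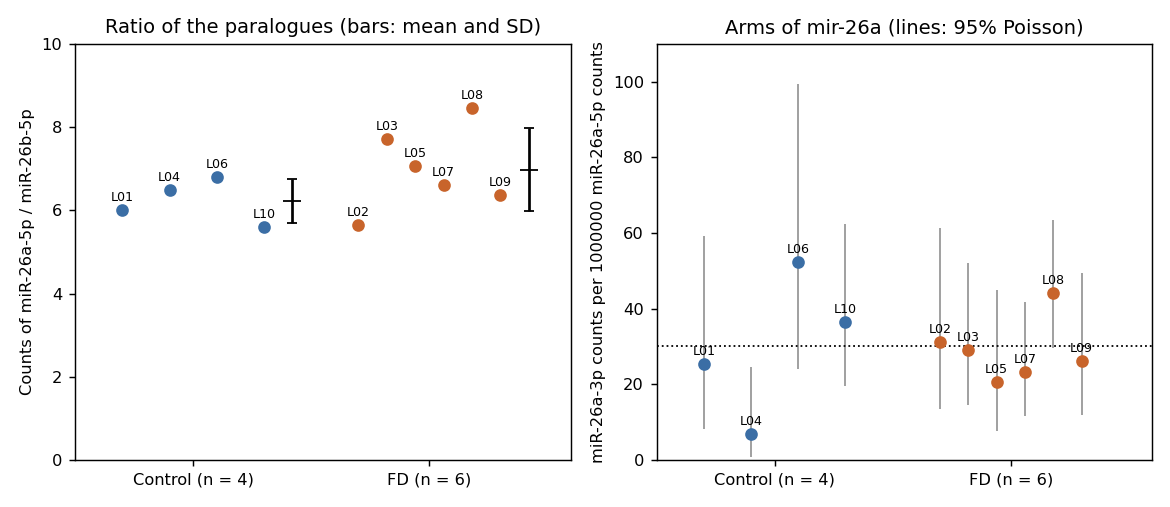
Left, counts of miR-26a-5p divided by those of miR-26b-5p in each library, with mean and SD by diet; right, counts of miR-26a-3p per 1000000 counts of miR-26a-5p with 95% Poisson intervals and the pooled value of 30.1 as a dotted line. The ratio of the paralogues reaches 8.45 in L08, and the interval of L04 lies below the pooled line.

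Across the 10 libraries, log2 normalized counts of the paralogues had a Pearson correlation of 0.622 (two-sided permutation test, p = 0.048) and a Spearman correlation of 0.43 (permutation p = 0.217). This was the only relation tested. No adjustment was made over the Pearson and Spearman coefficients, and only Pearson's permutation p was under 0.05. Without L06 and L08, the libraries farthest from the median of miR-26a-5p, Pearson's r was 0.539 (permutation p = 0.176). Without L06 alone it was 0.34 (permutation p = 0.39), and without L08 alone it was 0.748 (permutation p = 0.0153). The relation thus rested mainly on L06. Leaving out L01, L04, L05, L07 or L09 alone also took the permutation p above 0.05 (0.0638 to 0.0922), with r between 0.579 and 0.625. In deviations from the diet means, which leave out the difference between the diets, Pearson's r was 0.608 (permutation p = 0.057). The Spearman correlation of these deviations was 0.127 (permutation p = 0.735). Over the libraries other than L06, without such centring, the Spearman correlation was 0.217 (permutation p = 0.579). L06 was lowest for both miRNA. L10 was highest for miR-26b-5p, and L08, highest for miR-26a-5p, was below the median for miR-26b-5p.

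**Figure D5:**
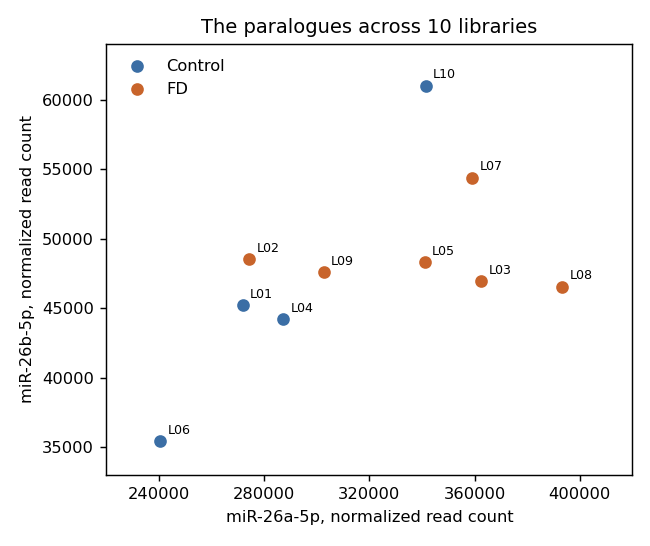
Normalized read counts of miR-26a-5p (horizontal axis) and miR-26b-5p (vertical axis) in the 10 libraries, with axes that do not start at 0. L06 is lowest on both axes, while L10 (61001 of miR-26b-5p) and L08 (393392 of miR-26a-5p) part from each other at the upper end.

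The spread between goats was described for each paralogue. For miR-26a-5p the coefficient of variation of normalized counts was 14.8% in Control and 12.8% in FD goats. For miR-26b-5p it was 22.9% in Control and 5.91% in FD goats, and its difference between diets was not tested. In Control, L06 (35404) and L10 (61001) stood apart from L01 (45224) and L04 (44215). The abundant miR-186-5p had a like pattern, with 24.7% in Control and 8.23% in FD goats. The median over the 47 miRNA with a mean of 10000 or more was 12.8% in Control and 13.8% in FD goats.

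The miRNA whose log2 normalized counts followed miR-26a-5p most closely over the 10 libraries were miR-195-5p (Pearson correlation 0.923), miR-205-5p (0.912), miR-29a-5p (0.909), miR-551b-3p (0.908) and miR-195-3p (0.905). miR-205 is known from the basal cells of epithelia, and the miR-195 precursor gave both of its arms to this list. Values within the diets were from 0.863 to 0.913, and without L08 from 0.876 to 0.925. miR-26b-5p was at place 78 among the 489 miRNA compared with miR-26a-5p. For miR-26b-5p the closest were miR-34b-5p (0.851), let-7b-5p (0.803), chr26_33674-5p (0.791), miR-34c-5p (0.77) and chr18_24690-5p (0.766), where the names with chr are predicted miRNA. miR-26a-5p was at place 26 in that order. No miRNA of the closest on either side had the seed TCAAGTA. Among the closest, miR-34b-5p, chr26_33674-5p, chr18_24690-5p and miR-551b-3p were scarce, with mean normalized counts of 19.9, 23.9, 13.9 and 32.9. The correlations describe 10 libraries that share their scaling, and they were the highest of many, so they carry no test.

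The level of miR-205-5p ran as an example from 6356 in L06 to 20077 in L10 in Control goats, and from 10264 in L09 to 22928 in L03 in FD goats. Its log2 fold change was 0.41 (standard error 0.314, adjusted p = 0.486 in the edgeR test). That of miR-195-5p was 0.42 (standard error 0.201, edgeR adjusted p = 0.323), so neither passed the test.

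Other miRNA named with the family by what is known of them were described by list. Of 20 names of miRNA that MYC represses in lymphoma models, 19 were tested. In the edgeR test 0 of these had an adjusted p under 0.1, against 0% (0 of 490) of all miRNA tested. An unadjusted p under 0.05 was given to 6 higher in FD goats (7.55% of all miRNA tested) and to 1 lower (8.16% of all tested). The median log2 fold change was 0.27, against -0.0004 over all miRNA tested, with 10 values above 0 and 9 below. This median was the value of miR-497-5p, the smallest above 0, and the next value down was -0.035 (let-7d-5p). The list was thus split, and its median does not show a shift of the whole list. The smallest p-values were those of miR-34a (log2 fold change 0.69), miR-146a (0.67) and miR-16a-5p (0.39), the edgeR adjusted p being 0.269 for each. miR-34a is a target of p53, and miR-146a restrains inflammatory signalling in leukocytes. The most abundant, miR-22-3p, had -0.26 (edgeR adjusted p = 0.269). The list held leukocyte miRNA too, and the let-7 and miR-30 members on it had values from -0.14 to -0.04.

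Among 12 miRNA tied to adipocytes or lipid metabolism, all 12 were tested. Against 0% (0 of 490) of all miRNA tested, 0 of these 12 had an adjusted p under 0.1 in edgeR. The unadjusted edgeR p was under 0.05 for 1 of the 12, higher in FD goats (7.55% of all miRNA tested). The median log2 fold change was 0.02, with 6 above 0 and 6 below, and its sign depended on the scaling (-0.06 with the upper quartile). The smallest p-values belonged to miR-130a-3p (0.44), miR-130b-3p (0.55) and miR-27a-3p (0.24), with edgeR adjusted p-values from 0.313 to 0.331. miR-148a-3p, the most abundant, had -0.31 (edgeR adjusted p = 0.44). Of 8 names of miRNA that target EZH2 as miR-26a does, 6 were tested. Against 0% (0 of 490) of all miRNA tested, 0 of these 6 had an adjusted p under 0.1 in edgeR. Their median was 0.27, with 5 above 0 and 1 below, and let-7c-5p (0.37, edgeR adjusted p = 0.195), miR-138-5p (1.13, 0.306) and miR-101-3p (0.18, 0.421) had the smallest p-values. The unadjusted edgeR p was under 0.05 for 2 of the 6, both higher in FD goats (7.55% of all miRNA tested). The most abundant, let-7a-5p, had -0.05. The paper's DESeq2 analysis listed let-7c-5p as raised in FD goats.

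The markers of cell types varied between the libraries, including L06 (lowest for miR-26a-5p) and L08 (highest). The 6 epithelial miRNA (the miR-200 family with miR-141 and miR-429, and miR-205-5p) were all present, with a summed normalized count of 220473 to 244168 in Control and 172861 to 242470 in FD goats, the lowest being in L08. Their median log2 fold change was -0.22, with 5 of 6 below 0 and miR-205-5p above it at 0.41. Of 5 leukocyte names 3 were matched (miR-223-3p, miR-150 and miR-155-5p), which summed to 8151 to 12623 in Control and 8307 to 18689 in FD goats, the highest being in L08, with a median of 0.87 (2 above 0 and miR-155-5p, the most abundant of the 3, below it at -0.12). In L06 the epithelial sum was 227581, within the Control range, and the leukocyte sum was 12623, the highest of the Control goats. The 2 endothelial arms of miR-126 summed to 117544 to 144955 in Control and 136542 to 197735 in FD goats, highest in L09 (median 0.34, both above 0). Of 4 erythroid names 3 were matched. They summed to 3750 to 6061 in Control and 5961 to 8756 in FD goats, highest in L02 (median 0.33, all 3 above 0). Most of the erythroid sum was miR-451-5p (mean normalized count 6096, log2 fold change 0.46). Of 5 stromal names 4 were matched. These summed to 686763 to 924238 in Control and 576426 to 1130598 in FD goats, highest in L05 (median 0.25, 3 above 0 and 1 below). Most of the stromal sum was miR-143-3p (mean 763364, log2 fold change 0.11), and miR-145-5p (mean 26813) had -0.15. The values above the median were those of the scarcer miR-199a-5p (mean 2050, 0.47) and miR-214-3p (mean 296, 0.39). In all these lists 0 members had an adjusted p under 0.1 in the edgeR test, which called 0% (0 of 490) of all miRNA tested. The unadjusted edgeR p was under 0.05 for 2 of 2 endothelial, 2 of 3 leukocyte and 1 of 3 erythroid miRNA. All of these were higher in FD goats, as were 7.55% of all miRNA tested. It was also under 0.05 for 2 of 6 epithelial miRNA, both lower (8.16% of all tested), and for 0 of 4 stromal miRNA. The paper's DESeq2 analysis listed miR-126-3p, miR-223-3p and miR-451-5p as raised in FD goats. In the paper's RT-qPCR, miR-126-3p and miR-223-3p went in the same direction, but neither change was significant. miR-451-5p was not measured in that way. The part of cell composition in the level of the miR-26 miRNA was not tested, and in whole tissue fewer cells of a type and less RNA per cell cannot be told apart.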

How the data were processed

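Small RNA of the mammary gland was sequenced in 10 libraries, 1 per goat, from 4 Control and 6 FD goats. The counts are the authors' deposited reads per mature miRNA. To make them, the authors called bases with CASAVA 1.8.2 (submitters' processing notes), trimmed adapters (Cutadapt), selected reads by size, aligned them to the goat assembly CHIR_1.0 and ran the miRDeep2 quantifier. The deposited normalized columns were not used. The table of predicted precursors served for the seed search alone. Reads carried no molecular identifiers, and adapter ligation, which depends on sequence, was not measured.

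Diets were compared with edgeR 4.0.16 (TMM, glmQLFit, glmQLFTest, two-sided, no covariates) in R 4.3.3, on miRNA whose highest normalized count was above 28, calling adjusted p-values (Benjamini-Hochberg) under 0.1. DESeq2 1.42.0 gave size factors and an alternative test, and limma 3.58.1 the voom fit. Standard errors are the log2 fold change divided by the root of F. Sums and ratios were compared by exact permutation (210 assignments of libraries, threshold 0.05), and the correlation by 100000 permutations. The fits were tested on simulated data. Other choices of test, scaling, filter, depth and libraries were tried. The closest miRNA were the 5 with the highest Pearson correlation for each paralogue, and from each list the 3 smallest p-values and the most abundant miRNA were named; miRNA listed without an arm were matched by the deposited arm. The members and lists were chosen with earlier results of these data known.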

Additional observations from a re-analysis of the deposited data

Results flagged for a closer look

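In 10 groups of values examined (5 measures in each diet), 2 values stood far from the rest of their group by Dixon's criterion, which chance meets in about 5% of groups. FD library L08 had 17.3 normalized counts of miR-26a-3p, against 7.06 to 10.6 in the other FD libraries, and FD library L07 had 54378 normalized counts of miR-26b-5p, against 46539 to 48501.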

How the results depend on the processing

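The log2 fold change of miR-26a-5p stayed above 0 and its adjusted p above 0.1 in all 22 alternatives (0.16 to 0.28 with other tests, scalings and filters, and 0.12 to 0.28 with 1 library left out). The unadjusted edgeR p of miR-26a-5p fell under 0.05 with library totals (0.0487) and without L02 (0.0395). The log2 fold change of miR-26b-5p changed sign in 2 of 22, to -0.024 with the upper quartile and to -0.038 without L06, within a leave-one-out range of -0.038 to 0.17. miR-26a-3p entered only the fits whose filter it passed (0.22 to 0.30). With 1 library left out, the difference of the 5p to 3p ratio ran from -0.51 to 0.39, that of the seed sum from 0.15 to 0.33, and that of the ratio of the paralogues from 0.10 to 0.21. The Pearson correlation of the paralogues was 0.605 with library totals, 0.595 with TMM, 0.608 within diets and 0.34 to 0.748 with 1 library left out. It lost its permutation p under 0.05 in 9 of 13 alternatives. The Spearman correlation within diets was 0.127 (permutation p = 0.735). The number of miRNA called, 0 in edgeR, was 26 with DESeq2, 5 without a filter and 1 with libraries drawn down to 4495512 counts, and 0 to 1 with 1 library left out (1 without L02). The cause was not tested. No paired analysis was possible because each library came from a different goat and the labels give no numbers shared between the diets. Counts were lowest for miR-26a-3p, at 2 to 29 per library.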

Other observations

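Bases 2 to 7 of the miR-26 seed (TCAAGT) were found at the same place in 1 further deposited miRNA, the predicted chrX_39142-5p, which had 5 counts over all libraries, so that miR-26a-5p and miR-26b-5p held practically all counts with these bases.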
